A study of Mus musculus with 4 samples.

Results

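The peaks described here are MIZ-1 ChIP-seq peaks at protein-coding promoters that were called in B220+ cells of mice whose MIZ-1 lacks its POZ domain and that no peak called in wild-type cells overlapped. They were selected on measured values, namely the 2 deposited peak lists themselves: a MIZ-1DPOZ peak was taken when its nearest transcript start belonged to a protein-coding gene, when it covered that start or lay under 2000 bp before or under 1000 bp after it, and when not even 1 bp of it was covered by a MIZ-1WT peak. This gave 7302 peaks of the 12450 protein-coding promoter peaks in the MIZ-1DPOZ list (58.7%, 95% Wilson interval 57.8 to 59.5), out of 78357 MIZ-1DPOZ peaks in all. Among all MIZ-1DPOZ peaks, wherever they lay, 77.9% overlapped no MIZ-1WT peak. The reverse class, promoter peaks of the MIZ-1WT list that overlapped no MIZ-1DPOZ peak, held 1912 of 7204 peaks (26.5%, 25.5 to 27.6). Since the overlap chose the peaks, these shares describe the lists and carry no test.

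ChIP-seq had been performed with the anti-MIZ-1 antibody H-190 on splenocytes expressing B220, a surface protein of B lineage cells, from young adult mice. MIZ-1WT cells are labelled WT, and whether these animals carried Cre is not given in the sources used here. MIZ-1DPOZ cells came from MB1-Cre mice with a floxed POZ exon of Miz-1, in which Cre is driven from the Cd79a locus and deletes the POZ domain in B lineage cells. All lines were backcrossed to C57BL/6. Each genotype had 1 ChIP library and 1 input library, so every difference between the lists is a difference between 2 libraries and cannot be set against the spread between mice. Intervals are 95% intervals that cover counting error only, by Wilson's method for shares and from order statistics for medians.

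MIZ-1 (ZBTB17) is a transcription factor with a row of zinc fingers that bind DNA and an N-terminal POZ domain, a fold through which it forms multimers and contacts partner proteins. At promoters it can activate transcription, and in complex with MYC it represses genes such as those of the CDK inhibitors, which hold cells in the G1 phase. In the B lineage it is known for its role in IL-7 receptor signalling and in the survival of early B cells. Deletion of the POZ domain leaves the zinc fingers in place.

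The sequences at the summits introduce the kinds of site found among these peaks. Each is printed from the GRCm38 genome (mm10) for the summit base and 100 bases on either side of it, in the direction of the gene's transcription and clear of annotated exons, with capitals marking the GC box (GGGCGG or its complement CCGCCC, the letters bound by SP1-type factors). Akr1cl is shown as the strongest peak with a summit counted as single-copy, a count explained below. Cd79a and Pou2f2 are shown because the study named them, and Pax5 and Cdkn2a as regulators of B cell identity and of the cell cycle. Ets1 is shown because its peak touched a MIZ-1WT peak without overlapping it, and Inpp5d and Wipf1 because their summits lay in repeats. Only Akr1cl followed from the rule for printing, and the others were chosen after their values were seen.
Akr1cl, chr1:65034102-65034302, minus strand: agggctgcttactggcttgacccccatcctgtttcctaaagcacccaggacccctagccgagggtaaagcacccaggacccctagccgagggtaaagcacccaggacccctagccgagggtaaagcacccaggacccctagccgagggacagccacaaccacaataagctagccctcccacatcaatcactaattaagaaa
Cd79a, chr7:24896455-24896655, plus strand: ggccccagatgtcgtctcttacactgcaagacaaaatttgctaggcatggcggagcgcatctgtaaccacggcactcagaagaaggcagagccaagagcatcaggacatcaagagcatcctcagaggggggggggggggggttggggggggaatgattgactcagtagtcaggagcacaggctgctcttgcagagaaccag
Pou2f2, chr7:25133282-25133482, minus strand: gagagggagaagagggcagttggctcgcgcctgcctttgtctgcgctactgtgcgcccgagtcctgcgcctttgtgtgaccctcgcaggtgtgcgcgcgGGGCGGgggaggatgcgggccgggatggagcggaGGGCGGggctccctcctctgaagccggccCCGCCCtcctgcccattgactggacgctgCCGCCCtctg
Pax5, chr4:44710840-44711040, minus strand: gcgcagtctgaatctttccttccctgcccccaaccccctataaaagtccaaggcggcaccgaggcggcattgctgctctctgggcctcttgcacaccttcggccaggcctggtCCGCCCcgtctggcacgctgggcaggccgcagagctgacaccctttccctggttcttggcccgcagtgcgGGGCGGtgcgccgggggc
Cdkn2a, chr4:89295224-89295424, minus strand: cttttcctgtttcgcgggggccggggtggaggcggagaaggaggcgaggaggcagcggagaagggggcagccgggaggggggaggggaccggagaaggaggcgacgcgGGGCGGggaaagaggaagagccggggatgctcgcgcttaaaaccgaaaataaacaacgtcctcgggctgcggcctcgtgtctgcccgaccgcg
Ets1, chr9:32695780-32695980, plus strand: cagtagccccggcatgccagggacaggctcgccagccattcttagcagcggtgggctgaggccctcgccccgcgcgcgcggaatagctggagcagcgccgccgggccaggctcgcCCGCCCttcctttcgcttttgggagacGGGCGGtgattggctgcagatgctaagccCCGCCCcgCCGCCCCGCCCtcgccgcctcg
Inpp5d, chr1:87674998-87675198, plus strand: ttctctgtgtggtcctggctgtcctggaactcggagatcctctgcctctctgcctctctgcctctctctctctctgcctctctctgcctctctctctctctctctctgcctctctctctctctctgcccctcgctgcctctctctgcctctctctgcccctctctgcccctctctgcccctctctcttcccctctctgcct
Wipf1, chr2:73455284-73455484, minus strand: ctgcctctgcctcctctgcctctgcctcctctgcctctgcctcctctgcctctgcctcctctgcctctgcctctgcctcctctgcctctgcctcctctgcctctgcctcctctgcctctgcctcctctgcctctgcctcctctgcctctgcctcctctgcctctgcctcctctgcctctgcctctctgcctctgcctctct

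The windows of Ets1, Pou2f2, Pax5 and Cdkn2a held 5, 4, 2 and 1 GC boxes, and 24, 19, 14 and 23 CpG dinucleotides. Those of Akr1cl, Cd79a, Inpp5d and Wipf1 held no GC box and 4, 4, 2 and 0 CpG. In Akr1cl, 126 bases belonged to a tandem repeat with a unit of 28 bases. The Inpp5d and Wipf1 windows were wholly repeat-masked. The Wipf1 sequence occurred 74 times in the genome, taken as the median count of 5 stretches of 50 bases around the summit, whereas the Inpp5d sequence had a copy count of 1. Akr1cl also had a copy count of 1 by this median, although stretches inside its tandem repeat occur more than once.

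Most of these peaks were small. The pileup, the number of fragments lying over the summit, had a median of 12 (interval 11 to 12, quartiles 10 and 14), and the authors' fold enrichment over the local background had a median of 4.85 (4.79 to 4.91). The −log10 q-values had a median of 5.05. Shared protein-coding promoter peaks of the same library, those that overlapped a MIZ-1WT peak, had a median pileup of 13 and a median fold of 5.53 (5.45 to 5.54). Shared peaks were also wider, with a median of 342 bp against 235 bp. Only 231 of the 7302 peaks (3.16%, 2.79 to 3.59) reached a pileup of 20, compared with 368 of 5148 shared peaks (7.15%, 6.48 to 7.89).

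**Figure D1:**
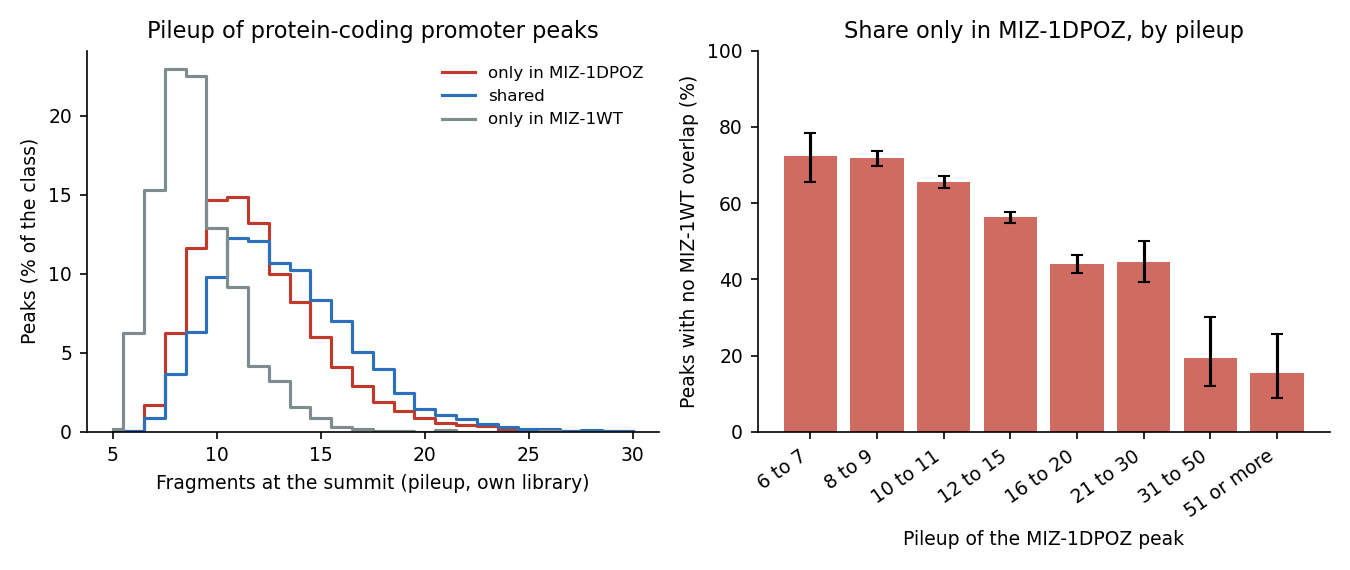
Left, pileup at the summit (fragments, whole numbers in each library's own depth) against the percent of peaks in each class for 7302 peaks only in MIZ-1DPOZ, 5148 shared MIZ-1DPOZ peaks and 1912 peaks only in MIZ-1WT, up to a pileup of 30. Right, percent of MIZ-1DPOZ protein-coding promoter peaks that overlapped no MIZ-1WT peak in 8 pileup classes with 95% Wilson intervals. It was 72.5% at 6 to 7 fragments, 44.0% at 16 to 20, 44.6% at 21 to 30 and 15.5% at 51 or more. In the classes above 30 all peaks only in MIZ-1DPOZ had summit sequences with several copies in the genome.

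The share of promoter peaks without a MIZ-1WT counterpart fell with the height of the peak up to 20 fragments. It was 72.5% (65.5 to 78.5) at pileups of 6 to 7, 65.5% (63.9 to 67.1) at 10 to 11, 56.2% (54.9 to 57.6) at 12 to 15 and 44.0% (41.8 to 46.3) at 16 to 20. Above 50 fragments, 11 of 71 peaks remained (15.5%, 8.88 to 25.7). By its most frequent background divided by its smallest peak width, the MIZ-1DPOZ library was 1.34 times deeper. The backgrounds themselves, 1.348 and 0.86, stand in a larger ratio. The part of depth in the number of peaks was not tested. Divided by 1.34, the median pileup became 8.95, next to a median of 9 for all protein-coding promoter peaks of the MIZ-1WT list. After this division 2747 of the 7302 peaks (37.6%, 36.5 to 38.7) reached 9 fragments. Division by the larger ratio of the backgrounds would make both the scaled median and this share smaller. The closeness to the MIZ-1WT median thus depends on the ratio chosen. The MIZ-1WT fragments at these positions were not analysed here, so a missing overlap says that no peak was called, not that no protein was bound. With the MIZ-1DPOZ list reduced to its strongest peaks, as many as the 34209 of the MIZ-1WT list, 2531 peaks in 2439 genes were left (47.8% of promoter peaks), and with a −log10 q of at least 5 in that list 3754 were left (51.5%).

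The peaks fell on 6192 of 21938 protein-coding genes, or 28.2%, which is the background for the gene lists below. For 4490 of them, 20.5% of all protein-coding genes, the MIZ-1WT list held no promoter peak at all. The other 1702 genes (27.5% of 6192, 26.4 to 28.6) had a MIZ-1WT peak at this or another promoter of the gene, and 1171 (18.9%) had a shared MIZ-1DPOZ peak beside the unshared one. A single peak was found in 5237 genes, 2 in 823 and 3 or more in 132. Nfatc1, which encodes a transcription factor activated by calcineurin, had the most, with 6 peaks at pileups of 9 to 19 around its start sites, no shared peak and 1 MIZ-1WT promoter peak that overlapped none of them. It was singled out after its values were seen.

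The gap to the nearest MIZ-1WT peak had a median of 14353 bp (13612 to 15004) over all 7302 peaks. It was under 200 bp for 809 peaks (11.1%, 10.4 to 11.8), at least 200 but under 2000 bp for 1163, at least 2000 but under 10000 bp for 1156 and 10000 bp or more for 4174 (57.2%, 56.0 to 58.3). Where the gene also carried a MIZ-1WT promoter peak, the median gap was 307 bp over 2051 peaks, and where it did not, the median was 24117 bp over 5251 peaks, a difference that the split by MIZ-1WT promoter peaks itself sets. The median pileup was 12 in both groups. Peaks covered the transcript start in 23.6% (21.8 to 25.5) of the former and 35.4% (34.1 to 36.7) of the latter. The overlap rule keeps these peaks off any MIZ-1WT peak, including one at a start. The split thus bears on this share too, and its part was not tested.

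**Figure D2:**
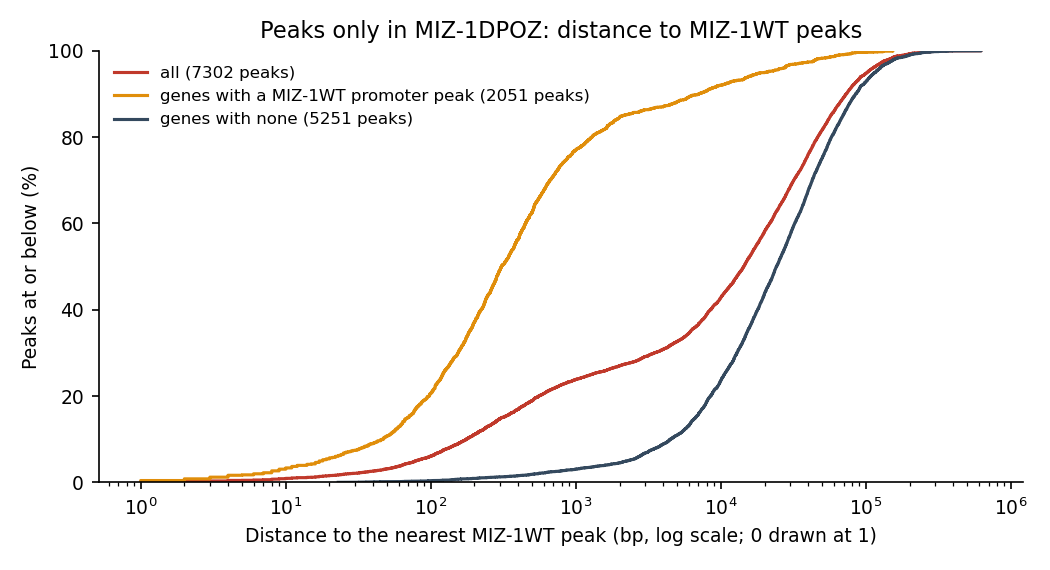
Distance in bp from each of the 7302 peaks to the nearest MIZ-1WT peak (log scale, with 0 drawn at 1) against the cumulative percent of peaks, for all peaks, for the 2051 whose gene also carried a MIZ-1WT promoter peak and for the other 5251. The medians of these 2 groups were 307 bp and 24117 bp.

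Just inside the rule, the peaks of Ets1, Cdyl, Ptp4a1, Usp53 and Usp9x abutted a MIZ-1WT peak at a gap of 0 bp. Ets1, a transcription factor that restrains plasma cell differentiation, had 10 MIZ-1DPOZ fragments over a summit 142 bp before its start, and the MIZ-1WT peak began at the next base and had 14 fragments. Cdyl, a chromodomain corepressor, also had 10 fragments. Ptp4a1, a phosphatase, and the deubiquitinase family members Usp53 and Usp9x had 8 each. Just outside it, the peaks of Naca and Tmem144 overlapped a MIZ-1WT peak by 1 bp and those of Cd47, Mpp3 and Ccdc13 by 2 bp, with pileups of 8, 8, 15, 14 and 10. Cd47 encodes the surface signal that restrains phagocytosis. The values on either side of the boundary thus overlapped.

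The strongest peaks with a single-copy (by the median count) and mostly unmasked summit had pileups of 23 to 26. Akr1cl, an aldo-keto reductase gene, had 25 fragments and a fold of 11.1 at chr1:65034063-65034355, 1443 bp before its start. Mtfmt, the mitochondrial methionyl-tRNA formyltransferase, had 25 fragments and a fold of 10.9 in an intron, 267 bp after its start at chr9:65435885-65436174. Smc4, a core subunit of the condensin complexes that compact mitotic chromosomes, had 26 fragments and a fold of 10.1 at chr3:69005851-69006233. Nox4, a hydrogen peroxide producing NADPH oxidase, and P2ry1, an ADP receptor, had 24 fragments each with folds of 10.6 and 10.3. None of these 5 genes had a MIZ-1WT promoter peak, and the nearest MIZ-1WT peak of any kind lay 14131 to 129622 bp away.

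Next in order were Rbm11, an RNA-binding splicing regulator, and Cyp4x1, a cytochrome P450, both with 23 fragments and a fold of 10.2. B4galt6, a lactosylceramide synthase, followed with 24 fragments and a fold of 9.58, Rnf11, a RING finger protein, with 23 and 9.71, and Sec24b, a cargo adaptor of COPII vesicles, with 23 and 9.51. B4galt6 and Rnf11 had a MIZ-1WT promoter peak as well, 116 and 161 bp from the MIZ-1DPOZ peak, while the gap was 80080 bp at Sec24b. The Rnf11 peak at MIZ-1WT carried 11 fragments, and another MIZ-1DPOZ peak overlapped it by 414 bp. The 10 peaks stood at 17.2 to 19.4 fragments after division by the depth ratio.

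Ranked by −log10 q over all 7302 peaks, the top 5 instead had repeated summits. Gm40460, a predicted gene, led with 35 fragments and a fold of 14.2, and its summit sequence had 6 copies in the genome. Spock1, a secreted proteoglycan gene, had 40 fragments over a sequence with 21524 copies, in a tandem repeat with a unit of 6 bases. Wipf1, which encodes a WASP-binding regulator of actin in lymphocytes, had 29 fragments over the sequence printed above. A separate MIZ-1WT peak of 10 fragments lay at another of its start sites, where another MIZ-1DPOZ peak overlapped it by 426 bp. Krtap9-1, a keratin associated protein gene of hair, had 28 fragments and 4 copies, and Igfbp7, an insulin-like growth factor binding protein gene, had 42 fragments and 702 copies. Where a sequence occurs several times, the reads' origin among the copies was not tested.

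Multi-copy summits made up 486 of the 7302 peaks (6.66%, 6.11 to 7.25) and 210 of 5148 shared peaks (4.08%, 3.57 to 4.65). They were concentrated at the top: of the peaks with at least 20 fragments, 95 of 231 were multi-copy (41.1%, 34.98 to 47.57), and of those with at least 30, all 28 were. Single-copy peaks reached at most 26 fragments. Over 50% of the bases around the summit were repeat-masked in 434 peaks (5.94%, 5.42 to 6.51) and in 137 shared peaks (2.66%, 2.26 to 3.14). Tandem repeats of at least 100 bases occurred in 117 peaks (1.60%, 1.34 to 1.92) and in 52 shared peaks (1.01%, 0.771 to 1.32).

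In position these peaks resembled the shared ones in their centre and differed in their spread. The summit lay a median of 131 bp downstream of the transcript start (124 to 140), against 127 bp for shared peaks (118 to 135) and 52 bp for peaks only in MIZ-1WT (39 to 67). Of the 7302 summits, 5020 were downstream (68.7%, 67.7 to 69.8). The start itself was covered by 2342 peaks (32.1%, 31.01 to 33.15) and by 2506 of the 5148 shared peaks (48.7%, 47.3 to 50.0). A wider peak covers a start more readily, and the part of the shared peaks' larger width in this was not tested. Summits lay within 200 bp of the start in 44.4% (43.2 to 45.5) of the peaks and 51.4% (50.1 to 52.8) of shared peaks. Summits over 500 bp upstream were found for 740 peaks (10.1%, 9.46 to 10.8) and for 224 shared peaks (4.35%, 3.83 to 4.94). The share of MIZ-1DPOZ promoter peaks without a MIZ-1WT counterpart was lowest in the 200 bp before the start, at 52.2% (50.0 to 54.3), and highest over 1000 bp before it, at 78.5% (74.9 to 81.8).

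**Figure D3:**
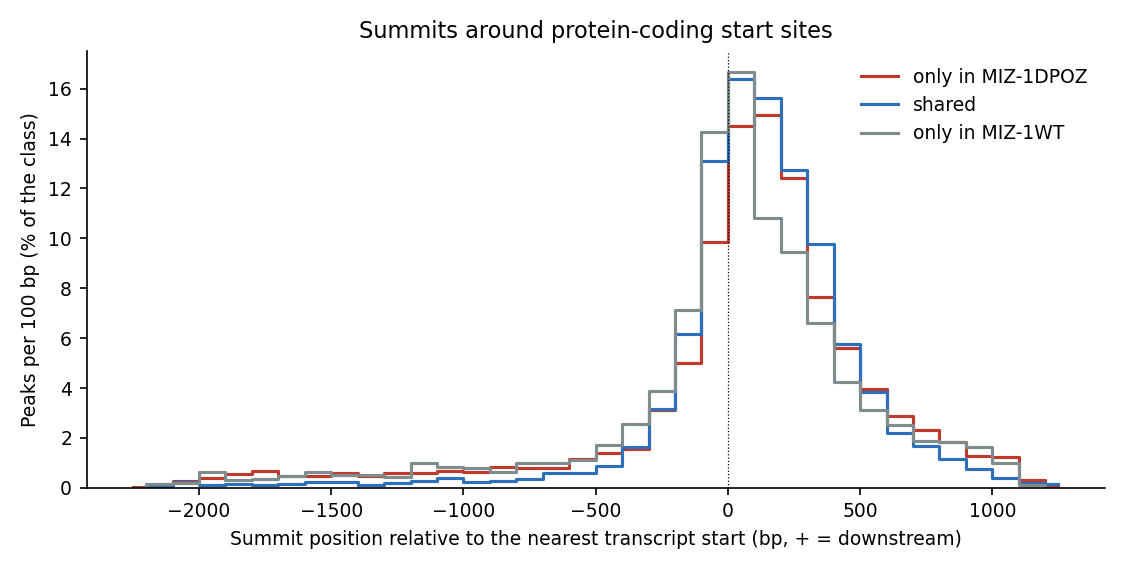
Position of the summit relative to the nearest transcript start in bp, positive values downstream, against the percent of peaks per 100 bp, for peaks only in MIZ-1DPOZ, shared MIZ-1DPOZ peaks and peaks only in MIZ-1WT. All 3 classes crowd near the start, with medians of 131, 127 and 52 bp downstream.

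By annotation, 2563 summits lay in introns (35.1%, 34.0 to 36.2), 1805 in untranslated exons (24.7%), 1474 in coding exons (20.2%, 19.3 to 21.1), 94 in exons of other transcripts and 1366 outside transcripts (18.7%). Shared summits lay in coding exons in 16.8% (15.8 to 17.8) and in untranslated exons in 29.6% (28.3 to 30.8), and peaks only in MIZ-1WT in 12.3% (10.9 to 13.9) and 26.7%. A protein-coding start on the opposite strand within 1000 bp was present at 458 peaks (6.27%, 5.74 to 6.85) and at 340 shared peaks (6.60%, 5.96 to 7.32).

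The classes also differed in base composition. The window of 100 bases on either side of the summit had a median GC content of 68.7% (68.2 to 68.7), against 73.6% (73.6 to 74.1) in shared peaks and 70.1% (70.1 to 70.6) in peaks only in MIZ-1WT. The median number of CpG was 17, 23 and 20. The share of MIZ-1DPOZ promoter peaks without a MIZ-1WT counterpart was 76.8% (69.8 to 82.5, 129 of 168 peaks) below a GC content of 50%, 89.1% (86.7 to 91.2) at 50 to 60% and 69.1% (67.4 to 70.7) at 65 to 70%. It was 38.2% (36.3 to 40.2) between 75 and 80%, and above that it was 29.3% (26.5 to 32.3). The difference was also present at equal heights: at pileups of 12 to 15 the median GC content was 69.7% without a counterpart and 74.1% with one, and at 16 to 20 it was 71.6% and 74.6%. Both lists came from 1 library each, and the part of the base composition of the libraries in this was not tested.

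**Figure D4:**
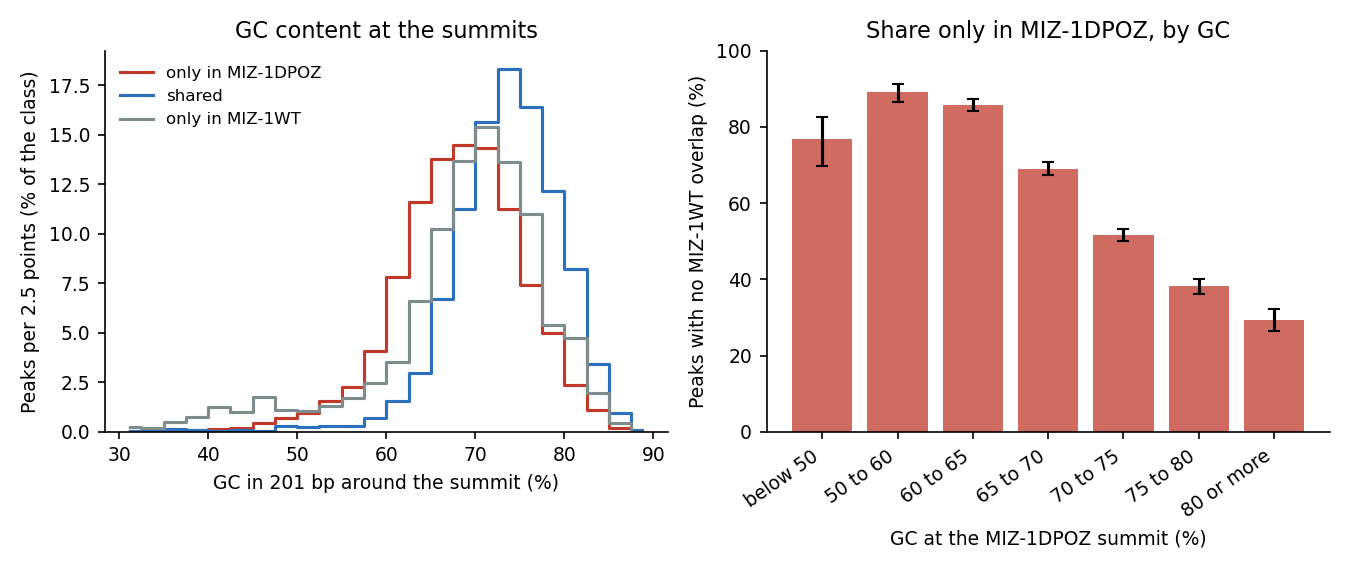
Left, GC content of the window around the summit against the percent of peaks per 2.5 points for the 3 classes, with medians of 68.7% (only in MIZ-1DPOZ), 73.6% (shared) and 70.1% (only in MIZ-1WT). Right, percent of MIZ-1DPOZ protein-coding promoter peaks without a MIZ-1WT counterpart in 7 GC classes with 95% Wilson intervals, which was 76.8% below 50%, rose to 89.1% at 50 to 60% and was 29.3% at 80% or more.

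Short sequence motifs of promoter factors were searched next. Searched on both strands of these windows, the GC box GGGCGG was present in 49.7% of the peaks (48.6 to 50.9), 65.6% of shared peaks (64.3 to 66.9) and 40.1% of windows of the same length at 41525 protein-coding start sites. At a GC content of 70 to 75% the box was present in 63.6% (61.4 to 65.8) and 62.3% (59.97 to 64.51) of unshared and shared peaks. The E-box CACGTG, bound by MYC and MAX, was present in 3.82% (3.40 to 4.29), against 3.69% (3.21 to 4.24) of shared peaks, 6.28% (5.27 to 7.45) of peaks only in MIZ-1WT and 5.11% of start sites. CCAAT, the site of NF-Y, was present in 11.6% (10.9 to 12.4), against 7.60% (6.90 to 8.35) and 25.4% of start sites. At a GC content of 70 to 75% it was present in 8.72% (7.53 to 10.1) of unshared and 7.60% (6.45 to 8.94) of shared peaks, intervals that overlap. The start-site windows had a median GC content of 59.7%, below that of the peaks, and the part of this in the motif shares was not tested. The YY1 letters AAGATGGC were present in 1.47% (1.21 to 1.77), against 2.08% (1.72 to 2.51) and 2.95%. The ETS core CCGGAAGT (0.918%), the NRF1 core CGCATGCG (0.657%), the cyclic AMP element TGACGTCA (0.575%), the PU.1 core GAGGAAGT (0.945%) and TATAAA (1.14%) were rare in the peaks, and the ZNF143 core ACTACAAT and the octamer ATGCAAAT were found in 4 peaks each. Each of these 7 was more frequent at start sites, where it was present in 4.12%, 1.70%, 1.79%, 2.11%, 7.20%, 0.448% and 0.833% of windows. The ETS and PU.1 letters share GGAAGT, and the other motifs do not contain one another. A match describes letters and not a bound site.

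By chromosome, the share of MIZ-1DPOZ promoter peaks without a MIZ-1WT counterpart ranged from 52.3% (chromosome 16) to 65.3% (chromosome 7) on the autosomes and was 77.8% on chromosome X (295 of 379 peaks, 73.4 to 81.7). Chromosome X held 3.04% of the protein-coding promoter peaks of the MIZ-1DPOZ list and 1.76% of those of the MIZ-1WT list, whereas its share of all peaks was 5.08% and 5.03%. Its peaks without a counterpart had a median pileup of 11 and a median GC content of 66.2%. Chromosome Y held 0.970% and 0.792% of all peaks. The sexes of the mice are not given in the sources used here, and their part in the values of chromosome X was not tested. On the autosomes alone the share was 58.1% (57.2 to 58.9).

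The gene lists were read against the 28.2% of all protein-coding genes with such a peak and the 20.5% that also lacked any MIZ-1WT promoter peak. Among the proximal components of the B cell receptor, which turns antigen binding into kinase signalling, 8 of 36 genes had a peak (22.2%, 11.7 to 38.1), and 4 had no MIZ-1WT promoter peak. Cd79a, the signalling chain Igα and the locus that drives Cre in the mutant mice, had a peak of 10 fragments (fold 4.68). The peak lay at chr7:24896468-24896640, 826 bp before the gene's start, and the nearest MIZ-1WT peak lay 6397 bp away. The study reported lower Cd79a expression in MIZ-1DPOZ cells without MIZ-1 binding at its promoter. The MIZ-1WT list held no promoter peak at Cd79a, whereas this MIZ-1DPOZ peak lay within the promoter window used here. Vav2, a guanine nucleotide exchange factor, had 16 fragments and a fold of 5.56, with a MIZ-1WT peak of 8 fragments 742 bp away. Sos1, the RAS exchange factor, had 13 fragments, and a MIZ-1WT peak of 15 fragments lay 14 bp away. Inpp5d, the inhibitory lipid phosphatase SHIP1, had 11 in the repeat printed above. The 255 protein-coding genes of the study's own list of genes tied to the receptor held 85 with a peak (33.3%, 27.8 to 39.3) and 54 (21.2%, 16.6 to 26.6) without a MIZ-1WT promoter peak. That list was chosen by the study partly on these samples and is not independent of them.

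Branches downstream of the receptor were counted in the same way. In the RAS to ERK pathway 13 of 27 genes had a peak (48.1%, 30.7 to 66.0), 7 of them without a MIZ-1WT promoter peak. Spry2, a feedback inhibitor, had 16 fragments, with a MIZ-1WT peak of 7 fragments 616 bp away. Another MIZ-1DPOZ peak overlapped that MIZ-1WT peak by 138 bp. Rasa1, a GTPase activating protein for RAS, had 13, 67 bp from a MIZ-1WT peak, and Map2k1, the kinase MEK1, had 14.

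In calcium and NFAT signalling, which links the receptor to calcineurin, 12 of 25 genes had a peak (48.0%, 30.0 to 66.5), but only 5 lacked a MIZ-1WT promoter peak. Ppp3r1, the regulatory subunit of calcineurin, had 18 fragments and a fold of 8.09. Stim1, the calcium sensor of the endoplasmic reticulum, had 16 and a fold of 7.24. Neither Ppp3r1 nor Stim1 had a MIZ-1WT promoter peak. Of 25 genes in the PI3K to AKT pathway, 7 had a peak and 3 of these had no MIZ-1WT promoter peak, namely Pik3r5, a regulatory subunit of PI3Kγ, the kinase gene Mtor, both with 13 fragments, and its inhibitor Tsc2, with 12. The Tsc2 peak lay 32 bp from a MIZ-1WT peak that was not assigned to its promoter.

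Actin remodelling genes, which shape the immune synapse of B cells, had such a peak in 19 of 44 cases (43.2%, 29.7 to 57.8), 10 of them without a MIZ-1WT promoter peak. Beside Wipf1, Wasf1, a WAVE subunit that activates the ARP2/3 complex, had 18 fragments and a fold of 7.97, and Arpc3, a subunit of that complex, had 16 and 5.79. Among genes induced by B cell receptor stimulation in an earlier study, as listed by the authors, 290 of 893 had a peak (32.5%, 29.5 to 35.6), and among genes repressed by it 126 of 386 (32.6%, 28.2 to 37.5).

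Of 36 B cell transcription factor genes, 14 had a peak (38.9%, 24.8 to 55.1), and 6 had no MIZ-1WT promoter peak. Pax5, which maintains B cell identity, had 17 fragments and a fold of 7.09 at chr4:44710815-44711092, 453 bp before its start. Mef2c, a MADS box factor of B cell activation, had 13 and a fold of 5.96. Foxp1, needed for follicular B cells, had 3 peaks, the largest of 12 fragments at 37 bp from a MIZ-1WT peak of 10. Another MIZ-1DPOZ peak overlapped that MIZ-1WT peak by 173 bp. Pou2f2, which encodes OCT2, had 10 fragments over an elevated background of 2.23 and a fold of 3.40 at chr7:25133151-25133478, 870 bp before its start. Of 10 B lineage marker genes, 3 had a peak (30.0%, 10.8 to 60.3), namely Pax5, Ebf1 and Cd79a. The MIZ-1WT list held a promoter peak at none of the 10. Of 21 marker genes of other blood cells, 3 had a MIZ-1DPOZ-only peak (14.3%, 4.98 to 34.6). They were Mpo of neutrophils, Tcf4 of plasmacytoid dendritic cells and Cd3e of T cells, with 14, 9 and 8 fragments. A promoter peak of a transcription factor does not measure expression, so these counts say nothing on the purity of the cells.

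CDK inhibitors, the best-known targets of MIZ-1, had peaks in 4 of 7 genes (57.1%, 25.05 to 84.18). This interval includes the 28.2% of all protein-coding genes. Of the 4 genes, 2 had no MIZ-1WT promoter peak. At the INK4 locus on chromosome 4, Cdkn2a had 3 peaks with 14, 13 and 11 fragments, 671 and 95 bp before and 389 bp after its start, and Cdkn2b had 12 fragments and a fold of 5.54, 34 bp after its start. The nearest MIZ-1WT peak lay 108966 bp from the Cdkn2b peak. Cdkn2c had 2 peaks of 12 and 10 fragments. Its MIZ-1WT promoter peak had 11 fragments, and another MIZ-1DPOZ peak overlapped it by 177 bp. In the MYC network 6 of 14 genes had a peak (42.9%, 21.4 to 67.4), and 4 of these also had a MIZ-1WT promoter peak. Max, the partner of MYC, had 13 fragments, with a MIZ-1WT peak of 6 fragments 217 bp after its start. Another MIZ-1DPOZ peak overlapped that MIZ-1WT peak by 184 bp. Mxi1, a MYC antagonist, and Mycn had 12 and 10, and the Mycn window was 55.7% repeat-masked. Cyclin, CDK and E2F genes had a peak in 12 of 29 cases (41.4%, 25.5 to 59.3), led by Ccna1, the cyclin of male meiosis, with 21 fragments, E2f3 with peaks of 17 and 16, and Ccna2, the cyclin of S phase, with 14. A MIZ-1WT peak of 10 fragments lay 119 bp from the E2f3 peak of 17. Another MIZ-1WT promoter peak of E2f3, of 11 fragments, lay 12 bp from a MIZ-1DPOZ peak.

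Genes of cell survival were covered in part. In the BCL2 family 6 of 18 genes had a peak (33.3%, 16.3 to 56.3), and 5 of these had no MIZ-1WT promoter peak. Pmaip1, the BH3-only protein NOXA, had 15 fragments and a fold of 6.71, and Bmf, another BH3-only gene, had 13. At Bcl2 itself, the survival factor, the unshared MIZ-1DPOZ peak of 12 fragments lay in the coding exon at chr1:106712619-106712810. It lay 1307 bp from a MIZ-1WT peak of 13 fragments, which another MIZ-1DPOZ peak overlapped by 186 bp. In the p53 pathway 7 of 19 genes had a peak (36.8%, 19.1 to 59.0), all without a MIZ-1WT promoter peak. These included the RNA-binding target Zmat3 with 16 fragments and the stress sensor Sesn2 with 12. The DNA damage kinase gene Atm had 14, in a window that was 54.2% repeat-masked. Cytokine receptor and SOCS genes had a peak in 8 of 32 cases, with Socs6, Socs2 and Socs1, inhibitors of cytokine signalling, at 18, 16 and 15 fragments. MIZ-1WT peaks lay 29 bp from the Socs2 peak and 184 bp from that of Socs1. Another MIZ-1DPOZ peak overlapped the MIZ-1WT peak at Socs2 by 140 bp. The 5 of 20 antigen presentation genes with a peak included Ctss, the protease that trims the invariant chain, with 18 fragments 2152 bp before its start in a wholly repeat-masked window with 153 bases of tandem repeat, and Tap1 and Tapbp, which load peptides onto class I molecules, with 14 and 15. Only 3 of the 5 had a single-copy, mostly unmasked summit.

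**Figure D5:**
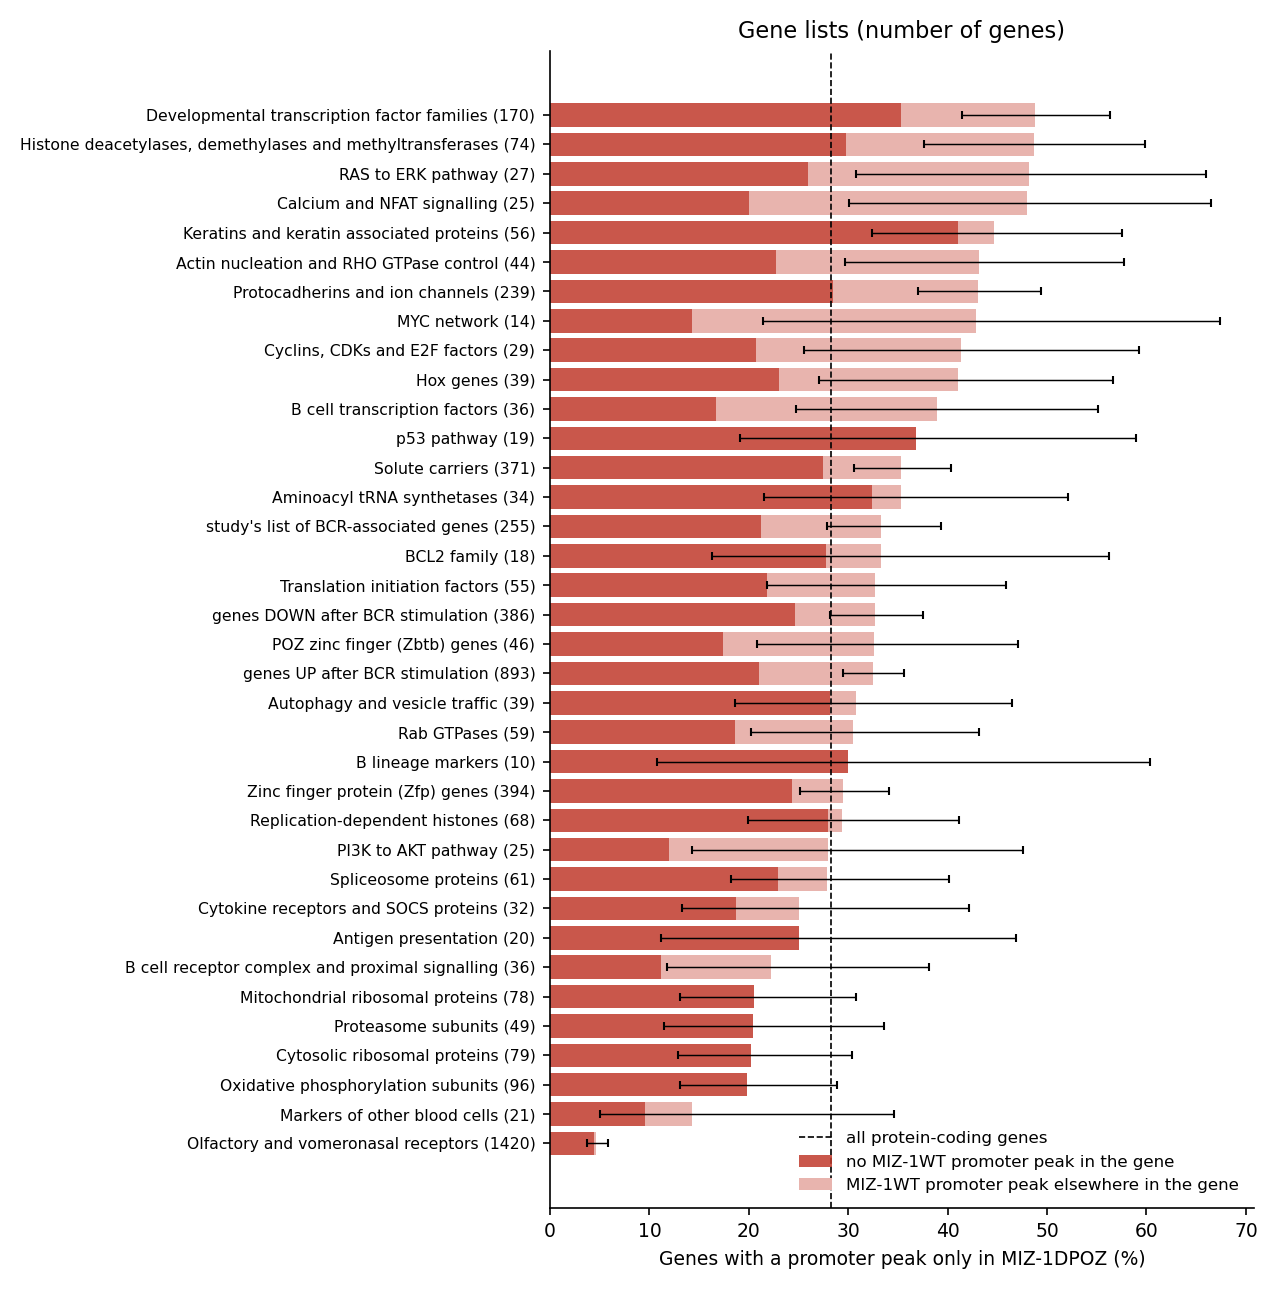
Percent of genes with at least 1 promoter peak only in MIZ-1DPOZ for the lists of at least 10 genes that are reported (number of genes in parentheses), with 95% Wilson intervals. The dark part of a bar counts genes with no MIZ-1WT promoter peak, the pale part genes with one at the same or another promoter of the gene, and the dashed line marks the 28.2% of all protein-coding genes.

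Histone modifiers had a peak in 36 of 74 genes (48.6%, 37.6 to 59.8) and 22 without a MIZ-1WT promoter peak (29.7%, 20.5 to 40.9). Kmt5a, which monomethylates histone H4, had 18 fragments and a fold of 7.14. Dot1l, the methyltransferase of the histone H3 core, and Suv39h2, a methyltransferase of heterochromatin, had 16 each, and a MIZ-1WT peak of 6 fragments lay 47 bp from that of Suv39h2. Zbtb genes, which encode POZ zinc finger proteins like MIZ-1, had a peak in 15 of 46 cases (32.6%, 20.9 to 47.0), led by Zbtb8b with 21, Zbtb1 with 17 and Zbtb21 with 14. A MIZ-1WT peak of 11 fragments lay 502 bp from the Zbtb1 peak, and another MIZ-1DPOZ peak overlapped that MIZ-1WT peak by 47 bp. Autophagy genes had one in 12 of 39 cases (30.8%, 18.6 to 46.4), and 11 of the 12 had no MIZ-1WT promoter peak. Uvrag, a subunit of the class III PI3K complex, and Atg4b, the protease that primes LC3, had 16 fragments each, and Stx17, the SNARE of autophagosome fusion, had 15.

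Housekeeping machineries fell on both sides of the background. In the 4 lists that follow, none of the genes with a peak had a MIZ-1WT promoter peak. Cytosolic ribosomal protein genes had a peak in 16 of 79 cases (20.3%, 12.9 to 30.4), mitochondrial ribosomal protein genes in 16 of 78 (20.5%, 13.0 to 30.8), subunits of oxidative phosphorylation in 19 of 96 (19.8%, 13.1 to 28.9) and proteasome subunits in 10 of 49 (20.4%, 11.5 to 33.6). All 4 intervals include the 28.2% of all protein-coding genes. The share without a MIZ-1WT promoter peak, 19.8% to 20.5%, was close to the 20.5% of all protein-coding genes. The largest pileups were 21 at Mrpl44, 18 at Rpl34, 17 at Psmd6 and 17 at Cox7a1, whose summit window was wholly repeat-masked. Aminoacyl tRNA synthetases had a peak in 12 of 34 cases (35.3%, 21.5 to 52.1), translation initiation factors in 18 of 55 (32.7%, 21.8 to 45.9) and spliceosome proteins in 17 of 61 (27.9%, 18.2 to 40.2). Some lists also count related genes, such as the assembly factors Ndufaf4 (oxidative phosphorylation) and Psmg1 (proteasome). The initiation factor list likewise counts the regulators Eif2ak2, Eif2ak3 and Eif4ebp3.

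Among lists of genes known from other tissues the shares ranged widely. Developmental transcription factor families had a peak in 83 of 170 cases (48.8%, 41.4 to 56.3) and 60 without a MIZ-1WT promoter peak (35.3%, 28.5 to 42.7), led by Gata5, a factor of heart and gut, with 19 fragments. Hox genes had one in 16 of 39 cases (41.0%, 27.1 to 56.6). Protocadherins and ion channels had one in 103 of 239 cases (43.1%, 37.0 to 49.4), with Kcnc2, a potassium channel gene of neurons, at 21 fragments, and solute carriers in 131 of 371 (35.3%, 30.6 to 40.3). Keratins and keratin associated proteins had one in 25 of 56 (44.6%, 32.4 to 57.6), 22 of them at a single-copy, mostly unmasked summit. Replication-dependent histones had one in 20 of 68 (29.4%, 19.9 to 41.1), but only 3 of the 20 at a single-copy, mostly unmasked summit. Of 1420 olfactory and vomeronasal receptor genes, 66 had one (4.65%, 3.67 to 5.87), 15 of them at such a summit. The median GC content at the start sites was 41.3% for these receptors, 54.2% for the keratins, 65.7% for the developmental factors and 61.7% for all protein-coding genes, taking for each gene its start site with the highest GC content.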

How the data were processed

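MIZ-1 ChIP-seq and input libraries had been sequenced from B220+ splenocytes, 1 of each per genotype. Per the methods, the authors used Trimmomatic for trimming, bwa for alignment to mm10 and MACS2 for narrow peak calling, whereas the submitters' processing notes name Bowtie2 2.2.6 and MACS2 2.1.0. The q cutoff and the handling of duplicates are not given in the sources used here. The deposited lists, made by the authors, hold for each peak a score, a fold enrichment over background (a ratio) and the −log10 p and −log10 q at the summit. The score was not used.

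From the deposited fold and −log10 p, the summit pileup and local background were solved for each peak. The ratio of the most frequent backgrounds per smallest peak width (0.86 over 148 bp and 1.348 over 173 bp) gave the depth ratio of 1.34. Total read counts were not analysed here. Peaks were assigned to the nearest GENCODE M21 basic transcript start on GRCm38, with a promoter reaching under 2000 bp before and under 1000 bp after it. GC content, motifs, repeat masking and copy number were read from 100 bases on either side of the summit in the RefSeq GRCm38 sequence. A summit was called multi-copy when the median genome count of 5 sequences of 50 bases around it exceeded 1. Python 3.11.15, numpy 2.4.6, pandas 2.3.3, scipy 1.17.1 and numba 0.67.0 were used.

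With 1 ChIP library per genotype no test between genotypes was run. Named peaks were the 10 with the largest −log10 q among single-copy, mostly unmasked ones, the 5 largest of all, the 5 nearest to either side of the overlap rule, up to 3 genes per gene list by −log10 q, and Cd79a and Pou2f2. The peaks and gene lists were chosen with earlier results of these data known, and the autosome-only alternative and the printed sequences other than that of Akr1cl were chosen after the data were seen. Other alternatives changed the q threshold, list length, overlap rule, promoter window and repeat filters. A gene list and a gene that the naming rule would include are not reported here.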

Additional observations from a re-analysis of the deposited data

How the results depend on the processing

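No paired analysis was possible because there was 1 ChIP library for each genotype, and no library could be left out. Under the settings that kept the q-values and list lengths as deposited, the count ranged from 5561 peaks in 4738 genes (no MIZ-1WT peak within 1000 bp) to 9999 peaks in 8103 genes (shared only at 50% reciprocal overlap). With a −log10 q of at least 5 in the MIZ-1DPOZ list, 3754 peaks (51.5% of promoter peaks) in 3514 genes remained, 2647 of these genes without a MIZ-1WT promoter peak. Their median pileup was 14, median fold 5.55 and median GC content 69.7%, with 78.3% within 500 bp of the start and 7.35% multi-copy. With the list cut to the length of the MIZ-1WT list, there were 2531 peaks (47.8%) in 2439 genes, 1852 of these without a MIZ-1WT promoter peak, at a median pileup of 15, fold of 6.03 and GC content of 70.1%, with 78.9% within 500 bp and 7.98% multi-copy. Both settings keep fewer and stronger peaks by construction. With a −log10 q of at least 2 in both lists the share was 60.6% and the median fold 4.93. Requiring no MIZ-1WT peak within 1000 bp gave a share of 44.7%, a fold of 4.99, 77.6% within 500 bp, 7.98% multi-copy and a GC content of 67.7%. Counting peaks as shared only at 50% reciprocal overlap gave 80.3%, 5.11, 78.5%, 5.75% and 70.1% for the same measures. A promoter window of 500 bp gave 55.9%, 4.92, 92.3%, 4.83% and 69.2%. With single-copy summits only, 77.7% lay within 500 bp and 0% were multi-copy. With at most 50% repeat-masked bases, 79.1% lay within 500 bp, 4.22% were multi-copy and the GC content was 69.2%. The autosomes alone gave 7006 peaks in 5941 genes. The part of depth in these counts was not tested.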
